A study of Mus musculus with 4 samples.

Results

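The transcription factor p53 and 9 genes that are widely used as its targets were followed over 4 mouse embryonic stem (ES) cell cultures, each read by 1 Affymetrix array. A member was every probe set that the array's annotation paired with 1 of the 10 listed symbols and no other. This gave 18 probe sets for 8 genes, out of 18193 genes read in the same way: Cdkn1a, Mdm2, Ccng1, Bbc3, Sesn1, Phlda3, Btg2 and Trp53inp1. No probe set was paired with Trp53 or Bax in the table used, so the level of p53 mRNA itself and that of Bax were not analysed here.

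All cultures were of E14.1 ES cells grown with leukaemia inhibitory factor (LIF) and blasticidin, and in all of them a gene for blasticidin resistance had been placed in the Oct3/4 locus, so that the drug kept cells that expressed Oct3/4. The heterozygous line, HET18, was Sall4 flox/-, and the line labelled null, KO1, was Sall4 delta/-. Both lines were cultured on gelatin alone and on blasticidin-resistant fibroblasts as feeders. Thus 1 array stood for each of the 4 groups, each genotype was represented by 1 line, no spread between replicate cultures was measured, and precision is limited by the number of arrays. Sall4 itself was brighter in the line labelled null: it read 1126.5 in heterozygous and 1670.5 in labelled-null cells without feeders, then 780.8 and 1452.4 on feeders. It is not known whether that probe set lies in the deleted part, so every genotype direction below rests on the labels.

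p53 is held at a low level in unstressed cells by MDM2, a ubiquitin ligase that marks it for degradation. When DNA damage or another stress frees it from MDM2, p53 binds DNA and switches on genes that stop the cell cycle, start apoptosis or adjust metabolism, and also Mdm2 itself, which closes a feedback loop. ES cells contain p53, and its activation in these cells is known to lower Nanog and to favour differentiation.

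p53 binds a pair of 10-base elements, and the promoter windows of the members were searched for the p53 consensus element by its name. RefSeq windows (GRCm38.p6, C57BL/6J) running from 250 bases before to 50 bases after each annotated start were found for 9 of the 10 genes, all but Trp53inp1. A full site was counted where 2 elements lay up to 13 bases apart with at most 1 mismatch outside their cores. The consensus reads the same on both strands, so both were covered. Such a site stood in 1 of the 13 member windows, the upstream start of Cdkn1a, against 0.417% of all 32851 windows. The stretches shown are the 250 bases before both Cdkn1a starts, because Cdkn1a was the member that passed the test, and those before Mdm2 and Btg2, because these genes and Cdkn1a had the largest gaps between the genotype differences without and on feeders. Capitals mark a full site in Cdkn1a and a single 10-base element in Mdm2.
Cdkn1a, upstream start, chr17:29090729-29090978, plus strand: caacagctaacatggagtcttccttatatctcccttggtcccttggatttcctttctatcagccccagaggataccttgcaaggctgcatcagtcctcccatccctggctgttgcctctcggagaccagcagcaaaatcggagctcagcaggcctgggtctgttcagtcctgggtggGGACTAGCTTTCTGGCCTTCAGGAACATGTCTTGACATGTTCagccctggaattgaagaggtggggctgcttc
Cdkn1a, downstream start, chr17:29093519-29093768, plus strand: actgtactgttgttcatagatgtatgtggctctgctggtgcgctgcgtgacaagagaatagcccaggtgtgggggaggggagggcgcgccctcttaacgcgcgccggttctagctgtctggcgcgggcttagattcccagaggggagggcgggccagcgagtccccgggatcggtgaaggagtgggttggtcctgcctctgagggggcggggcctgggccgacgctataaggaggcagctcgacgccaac
Mdm2, chr10:117710759-117711008, minus strand: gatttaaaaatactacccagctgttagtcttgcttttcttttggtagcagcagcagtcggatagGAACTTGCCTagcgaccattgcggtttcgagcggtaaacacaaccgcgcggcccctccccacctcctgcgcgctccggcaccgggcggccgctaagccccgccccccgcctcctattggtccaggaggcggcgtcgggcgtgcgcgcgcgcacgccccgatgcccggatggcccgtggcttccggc
Btg2, chr1:134079156-134079405, minus strand: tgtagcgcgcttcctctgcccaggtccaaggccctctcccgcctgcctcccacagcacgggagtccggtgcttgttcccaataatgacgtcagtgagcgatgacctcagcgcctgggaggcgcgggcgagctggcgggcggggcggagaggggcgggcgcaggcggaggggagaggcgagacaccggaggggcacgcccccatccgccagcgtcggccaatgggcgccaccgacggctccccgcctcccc
The capitals in Cdkn1a hold overlapping pairs. The pair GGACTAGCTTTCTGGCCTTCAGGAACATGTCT, at positions -73 to -42 from the start, had 0 mismatches, and the pair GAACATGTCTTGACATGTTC, at -51 to -32, with no spacer, had 1. A single 10-base element without a mismatch was found in windows of 6 of the 9 genes (Bax, Ccng1, Cdkn1a, Mdm2, Sesn1 and Trp53), against 9.55% of all 27025 genes. A match describes these letters only, and response elements outside the windows were not looked for.

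Deposited signals were compared as log2(signal + 4.6), where the offset of 4.6 is the 25th percentile of all signals, and all folds are on that scale. The probe set with the highest mean stood for its gene. Of the 18 member probe sets 17 lay above the filter on dim signals, and all 8 genes were tested. The limma model held a genotype term and a feeder term and was fitted over 12485 genes, with p-values adjusted by the Benjamini-Hochberg method over all of them. Its 1 residual degree of freedom is the gap between the genotype differences seen without and on feeders, so its p-values carry no spread between replicate cultures.

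Cdkn1a, which encodes the cyclin-dependent kinase inhibitor p21 and is the classical cell cycle arrest gene of p53, rose on feeders, the 1 member of 8 that passed. Its signal was 199 in heterozygous and 452 in labelled-null cells without feeders, then 1254 and 1177 on feeders. Both arrays on feeders lay above both arrays without them, and the array of heterozygous cells without feeders was the lowest of the 4. On feeders the signal was 6.17-fold higher in heterozygous and 2.59-fold higher in labelled-null cells. The fitted log2 difference was 1.998 (SE 0.29, adjusted p = 0.0217 by limma), the rank of 240 from the top among 12485 genes. By this test 4.77% of all tested genes passed, 3.88% higher and 0.881% lower on feeders. The second Cdkn1a probe set read 38.1 and 108.6 without feeders, then 250.2 and 202.8 on feeders, the same order of arrays. With every probe set tested by itself, the limma adjusted p was 0.0101 for the brighter and 0.0494 for the dimmer one. The call depended on the setting: it was lost in 5 of 10 alternatives, with adjusted p up to 0.123 by limma.

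RNA on the feeder arrays came from ES cells and from fibroblasts, and in bulk RNA a change in the number of cells of a type and a change of RNA per cell cannot be told apart. Of 23 fibroblast markers, 23 were higher on feeders in each genotype. Their summed signal was 1827 in heterozygous and 4855 in labelled-null cells without feeders, then 18999.5 and 25906 on feeders. Most of that sum without feeders came from Acta2 (732.9 and 1958.4) and Tagln (657.3 and 1491.9). On feeders Tagln read 1307.3 and 1730.5. The collagen gene Col1a2 read 38.4 and 36.2 without feeders, then 1812 and 2506 on feeders. The summed signal of 10 ES cell markers was 20488, 17208, 22315 and 20760.5 in the same order of arrays, so it differed far less. Fibroblast RNA was thus higher on feeders, as was the Cdkn1a signal. Between genotypes on feeders, 23 of 23 fibroblast markers were higher in labelled-null cells, while Cdkn1a read 1254 in heterozygous and 1177 in labelled-null cells. The part of fibroblast RNA in the Cdkn1a difference was not tested.

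**Figure D1:**
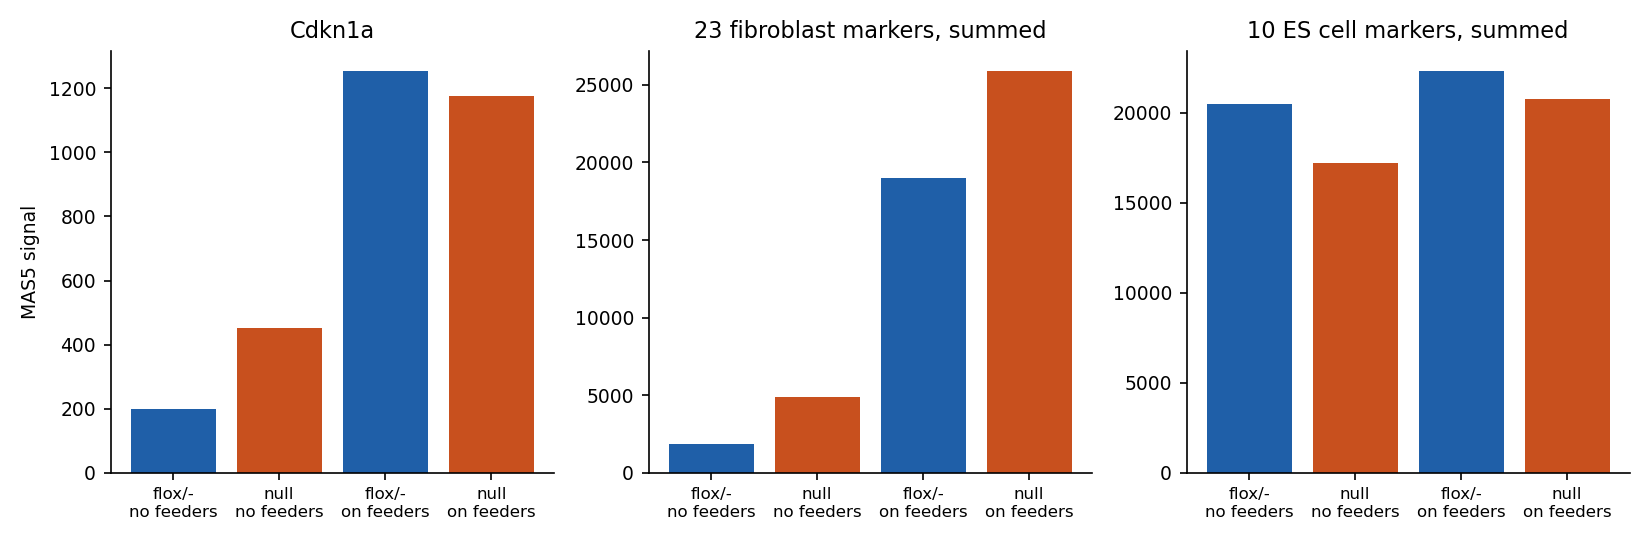
Bars give the MAS5 signal of Cdkn1a, the summed signal of 23 embryonic fibroblast markers and that of 10 ES cell markers on each of the 4 arrays, 1 array per bar, with linear axes from 0. Cdkn1a and the summed fibroblast markers were lowest in heterozygous cells without feeders (199 and 1827), next in labelled-null cells without feeders (452 and 4855) and highest on feeders. Without feeders most of the fibroblast sum came from Acta2 and Tagln.

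Between genotypes no member passed (0 of 8 by limma), against 0.032% of all tested genes. An unadjusted p under 0.05 by limma was reached by 1 of the 8 members, Ccng1, close to the share of 12.3% of genes. No member had the arrays of both genotypes apart from each other (0 of 8), against 32.2% of genes. A 2-fold rule asked for a difference of 2-fold or more in one direction in both feeder conditions. It also asked that the brighter array of each pair exceed the median of all signals, 17.1. This rule was met by 0 of 8 members, against 1.11% of genes. The sign differed between feeder conditions for 5 of the 8 members, against 39.9% of genes. Without feeders 7 of the 8 members were higher in labelled-null cells, and on feeders 4 were. The list median of the log2 difference was 0.32 without feeders and -0.05 on feeders, beside 0.00 and 0.01 over all tested genes.

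The largest member difference in the pair without feeders was that of Cdkn1a, 2.24-fold higher in labelled-null cells, while on feeders it was 1.07-fold lower. The fitted genotype difference was 0.54 (SE 0.29, adjusted p = 0.521 by limma). The dimmer Cdkn1a probe set gave 2.65-fold higher without feeders. In that pair 21 of 23 fibroblast markers were also higher in labelled-null cells, Col3a1 with 19.2 and 243.7, although no feeders were added. Col1a2 (38.4 and 36.2) and Thy1 (20.8 and 15.7), both defining markers, were the exceptions. The part of this signal in the Cdkn1a difference was not tested.

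**Figure D2:**
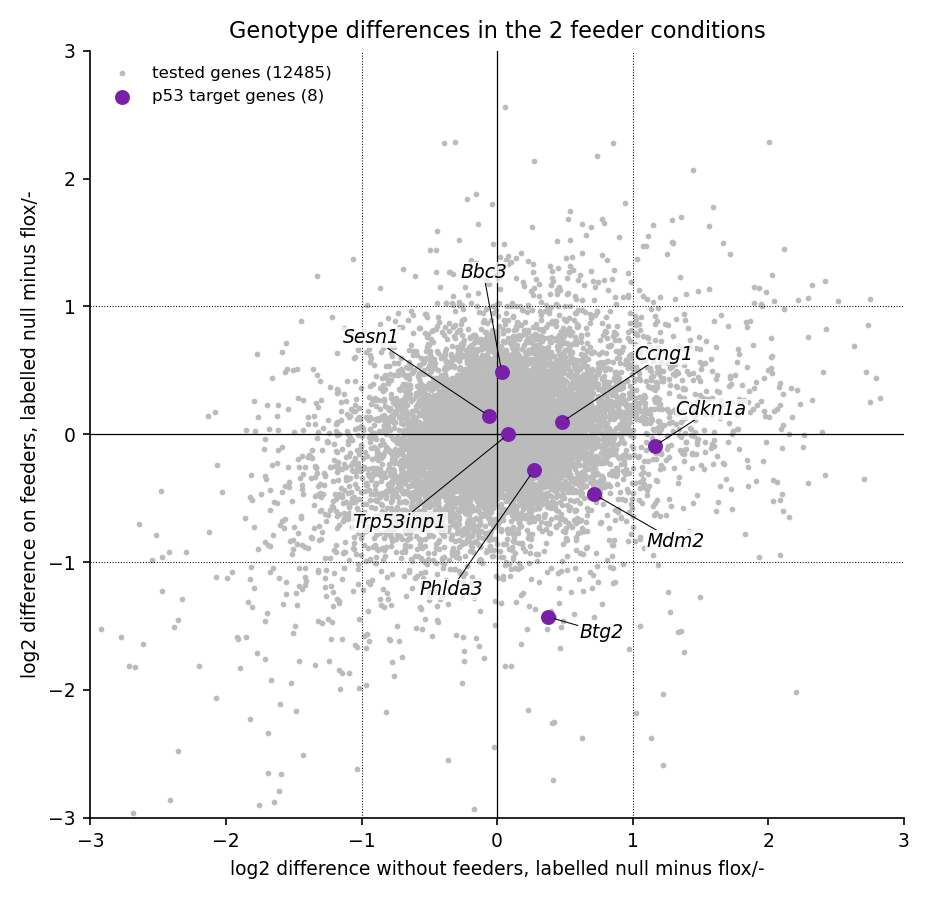
Each point is 1 of 12485 tested genes, placed by its log2(signal + 4.6) difference, labelled null minus flox/-, without feeders on the x axis and on feeders on the y axis, with 8 p53 target genes in purple and dotted lines at 2-fold; 17 genes lie outside the axes. Cdkn1a (1.16 and -0.09), Mdm2 (0.72 and -0.47) and Btg2 (0.38 and -1.43) lie to the right of 0 and below it.

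Mdm2, the p53 ubiquitin ligase, followed a crossed pattern. Its signal was 640 in heterozygous and 1054 in labelled-null cells without feeders, then 878 and 632 on feeders. The highest array was that of labelled-null cells without feeders, and the arrays of both genotypes and of both feeder conditions overlapped. Mdm2 was 1.64-fold higher in labelled-null cells without feeders and 1.39-fold lower on feeders. A second bright probe set read 536, 824, 829 and 576 in the order heterozygous and labelled null without feeders, then on feeders, and the last was dim at 7, 19.9, 24 and 19.3. All 3 probe sets were higher in labelled-null cells without feeders and lower in them on feeders. The fitted difference was 0.12 (SE 0.27, adjusted p = 0.895 by limma) between genotypes and -0.14 (SE 0.27, adjusted p = 0.803) by feeders. The latter is a mean of 0.45 in heterozygous and -0.73 in labelled-null cells and is 0.18 with the mean of the probe sets.

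Ccng1 encodes cyclin G1, which recruits a phosphatase to MDM2. It read 1658 in heterozygous and 2310 in labelled-null cells without feeders, then 2484 and 2654 on feeders. Heterozygous cells without feeders were the lowest, and the other 3 arrays lay close together, with no overlap between feeder conditions. The difference was 0.39 by feeders (SE 0.11, adjusted p = 0.123 by limma) and 0.29 between genotypes (SE 0.11, adjusted p = 0.394), and neither passed. The probe sets disagreed in size: one read 737, 1043.5, 1054 and 1061 in the same order of arrays, and another 1752, 2101, 1861 and 1928. In all 3 the array of heterozygous cells without feeders was the lowest, and the feeder difference of the last was -0.02.

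Btg2, an antiproliferative gene whose product aids the shortening of mRNA tails, had the largest gap between conditions among the members. It read 193 in heterozygous and 252 in labelled-null cells without feeders, then 425 and 155 on feeders. Heterozygous cells on feeders were high and the other 3 arrays low. Btg2 was 1.30-fold higher in labelled-null cells without feeders and 2.69-fold lower on feeders, a gap of -1.81 on the log2 scale that ranked 164 by size among 12485 genes. The second probe set read 104.7, 132.8, 445.7 and 134.2 in that order, with the same array high. The fitted genotype difference was -0.53 (SE 0.41, adjusted p = 0.658 by limma), and the feeder difference was 0.22 (SE 0.41, adjusted p = 0.794). The second probe set had a feeder difference of 1.03, and the mean of the probe sets 0.62, so the size depended on the probe set. The gap itself had no test, since it is the only residual of the model.

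**Figure D3:**
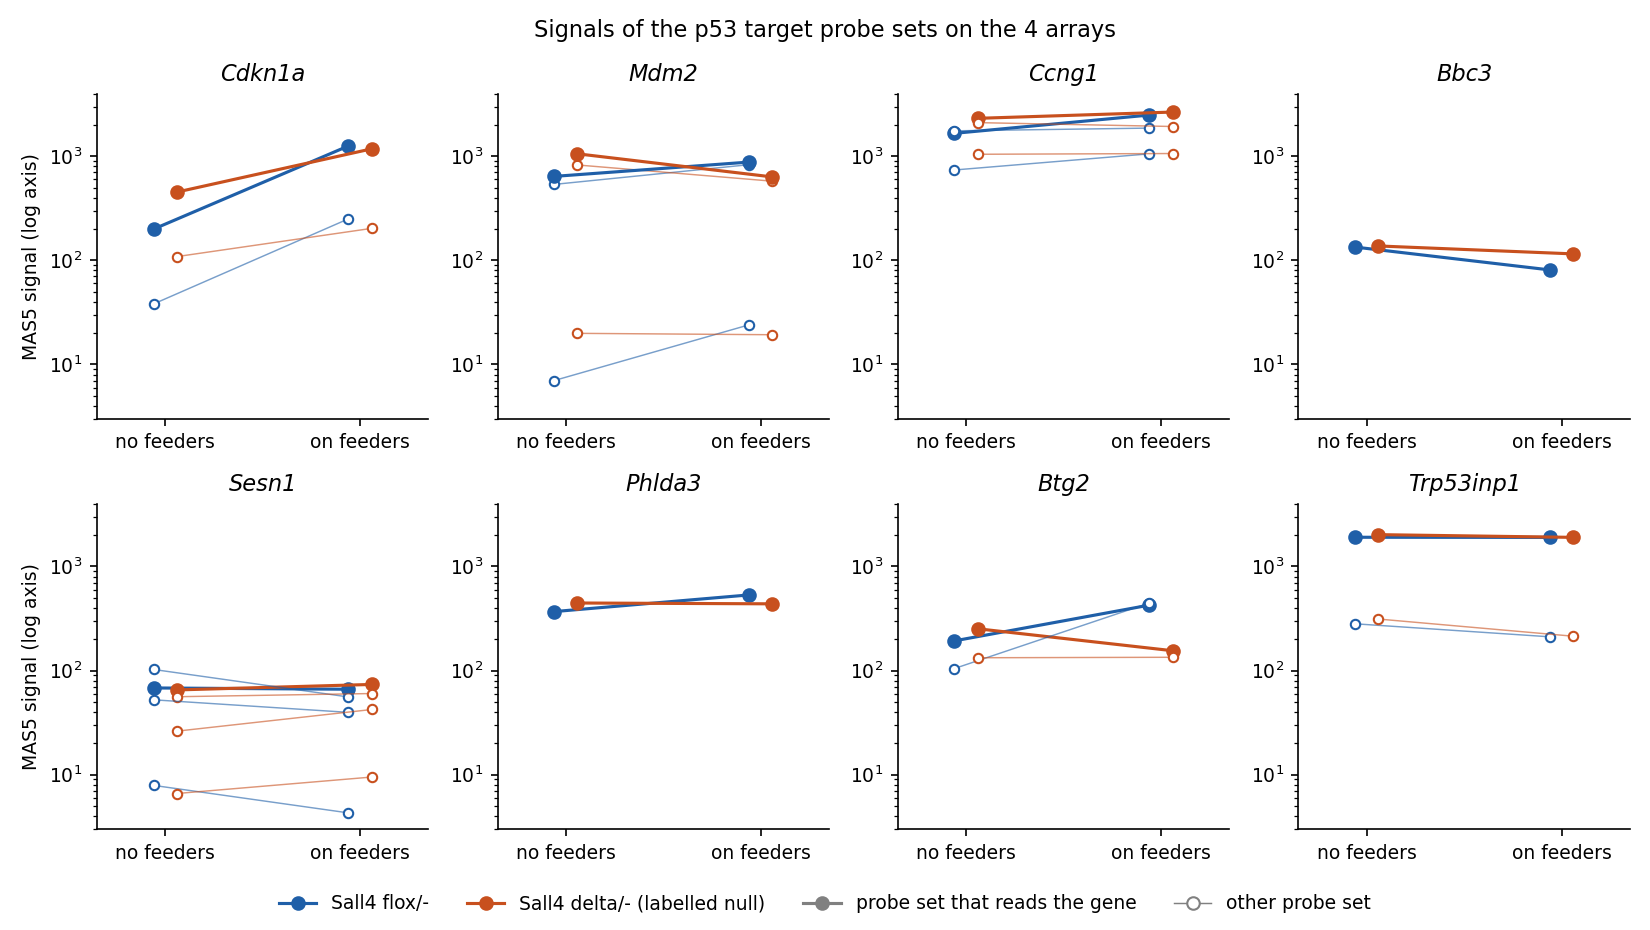
MAS5 signals (log axis) of the 18 probe sets of 8 p53 target genes without and on feeders, 1 array per point, with lines joining arrays of 1 genotype, filled points for the probe set that reads the gene and open points for the others. The Cdkn1a lines climb in both genotypes, those of Btg2 and of the bright Mdm2 probe sets part or cross, and Trp53inp1 is nearly level at 1906.5, 2020, 1900.3 and 1902.

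No apoptosis member passed in either comparison. Bbc3 encodes PUMA, a protein that binds and blocks the survival members of the BCL2 family. It read 134 in heterozygous and 137 in labelled-null cells without feeders, then 80.9 and 115 on feeders. Both arrays on feeders were below both arrays without them, but the feeder difference of -0.47 (SE 0.20, adjusted p = 0.252 by limma) did not pass. Trp53inp1, a nuclear stress protein that promotes p53-dependent cell death, read 1906.5 and 2020 without feeders, then 1900.3 and 1902 on feeders. All 4 arrays lay within a narrow range, and the SE of its difference was 0.08, the smallest among the members. A second Trp53inp1 probe set read 281 and 313 without feeders, then 211 and 214 on feeders, a feeder difference of -0.47 against -0.05 for the brighter one, so the probe sets disagreed in size.

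Phlda3 encodes a small lipid-binding protein that holds back the kinase AKT. It read 368.5 in heterozygous and 446 in labelled-null cells without feeders, then 533 and 437.5 on feeders, highest in heterozygous cells on feeders. The feeder difference was 0.25 (SE 0.18, adjusted p = 0.465 by limma) and the genotype difference -0.01 (SE 0.18). Sesn1 encodes sestrin 1, which restrains mTORC1 under stress. Its probe set with the highest mean read 68.1, 65.2, 66.2 and 73.6 in heterozygous and labelled-null cells without feeders and then on feeders. Another Sesn1 probe set read 102.5, 56.1, 55.8 and 60.2, with heterozygous cells without feeders highest. Yet another read 52.4, 26.2, 39.7 and 42.3, also with that array highest, and the fourth lay under the filter at 4.3 to 9.5. Every Sesn1 probe set was lower in labelled-null cells without feeders and higher in them on feeders. The full order of the arrays differed between its probe sets.

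**Figure D4:**
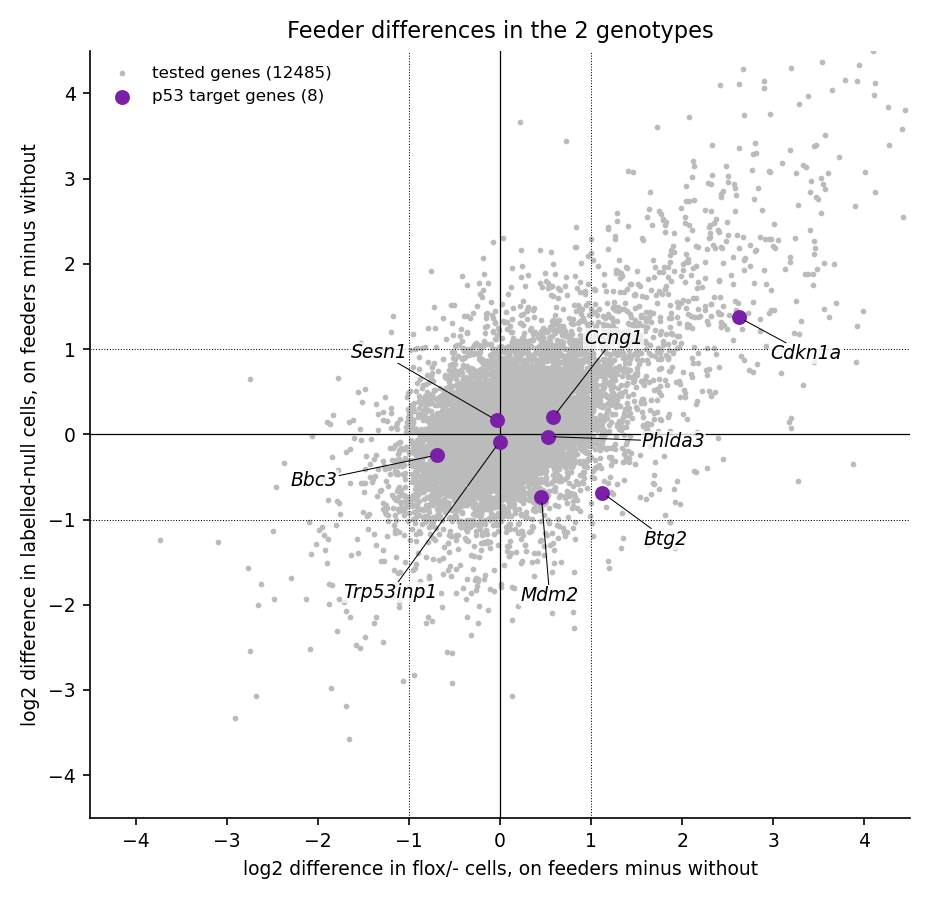
Each point is 1 of 12485 tested genes, placed by its log2(signal + 4.6) difference, on feeders minus without, in flox/- cells on the x axis and in labelled-null cells on the y axis, with 8 p53 target genes in purple and dotted lines at 2-fold; 42 genes lie outside the axes. Cdkn1a lies apart from the other members at 2.63 and 1.37, and Btg2 lies at 1.12 and -0.68.

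In heterozygous cells 5 of the 8 members were higher on feeders, with a median of 0.49, and in labelled-null cells 3 were, with a median of -0.06. Without Cdkn1a these were 4 of 7, with a median of 0.45, and 2 of 7, with a median of -0.09. The medians over all tested genes were 0.03 and 0.04. The arrays of the 2 feeder conditions did not overlap for 4 members, 2 higher (Cdkn1a and Ccng1) and 2 lower (Bbc3 and Trp53inp1), beside 48.8% of all tested genes. The 2-fold rule, with its condition on brightness and taken over both genotypes, was met by Cdkn1a alone. Over all tested genes 3.96% met it in the higher and 0.529% in the lower direction. An unadjusted p under 0.05 by limma was reached by 2 of the 8 members, Cdkn1a and Ccng1, close to the share of 21.8% of genes.

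A wider list of 41 p53 targets was read beside the members. Of 38 tested, 3 rose and 1 fell on feeders by limma, beside 4.77% of all tested genes in either direction. Between genotypes 0 passed by limma, with 6 at an unadjusted p under 0.05, beside 12.3% of all tested genes. Thbs1, which encodes the matrix protein thrombospondin 1, read 286 and 477 without feeders, then 2407.5 and 2327 on feeders, a difference of 2.67 (SE 0.19, adjusted p = 0.003 by limma). Ephx1, an epoxide hydrolase gene, rose by 2.61 (SE 0.21), and Igfbp3, which encodes a binding protein of insulin-like growth factors, by 1.37 (SE 0.22). Sfn, which encodes the epithelial protein 14-3-3 sigma, fell by 1.43 (SE 0.24, adjusted p = 0.0346 by limma) from 215.5 and 114 to 58.5 and 52.5. The median feeder difference of the list was 0.01, beside 0.03 over all tested genes. The death receptor gene Fas read 2.4 and 15.6 without feeders, then 40.1 and 32.5 on feeders, the same order of arrays as Cdkn1a, and did not pass (adjusted p = 0.107 by limma). The fibroblast markers moved in the same comparison, as given above. Of 7 tested trophectoderm markers, which include keratins of simple epithelia, 4 fell on feeders by limma, as did Sfn, beside 0.881% of all tested genes. Among the 4 was Krt8, from 847 and 933 to 128 and 107. Of the others, Cdx2 (2.1 and 4.9) and Gata3 (4 and 9.2) were dim on feeders. Tfap2c was higher on feeders in both genotypes, from 633.8 and 347 to 723.5 and 577.9. The part of either cell type in these differences was not tested.

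Between genotypes 19 of the 38 wider targets were higher and 19 lower in labelled-null cells by the fitted difference, with a median of 0.02, and none passed. Gadd45a, a stress gene of growth arrest, read 437 and 299 without feeders, then 447 and 268 on feeders. Steap3, a metal reductase gene, had a difference of -0.76 (SE 0.29), and Tigar, which encodes a sugar bisphosphatase, of -0.66 (SE 0.19). Fas had 0.63 (SE 0.48), a mean of 1.53 without and -0.27 on feeders. In the list of the BCL2 family and caspases, Pmaip1, which encodes the BH3-only protein NOXA and is a p53 target too, read 319 and 220 without feeders, then 345 and 206 on feeders (difference -0.63, SE 0.16, adjusted p = 0.251 by limma). For Gadd45a and Pmaip1 both labelled-null arrays were below both heterozygous arrays. Of the 38 wider targets, 6 had the genotypes apart in that direction and 5 in the other, beside 32.2% of all tested genes in either direction.

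Of 17 tested genes of the BCL2 family and caspases, 0 rose and 1 fell on feeders by limma, beside 4.77% of all tested genes in either direction. Bcl2l11, which encodes the BH3-only protein BIM, fell by 0.68 (SE 0.11, adjusted p = 0.0302 by limma) from 1140.5 and 1188.5 to 690 and 759. Bcl2 (1.51), Bok (-0.90) and Bid (0.49) had feeder differences that did not pass. Between genotypes 0 of 17 passed by limma, with 1 at an unadjusted p under 0.05, beside 12.3% of all tested genes, and Bik had -0.63, Bcl2 -0.43 and Diablo -0.32. The Bcl2 value is a mean of -1.11 without and 0.26 on feeders, from dim signals (19 and 6.3, then 37.2 and 45.5).

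Among 27 tested regulators of p53, 0 passed in either comparison by limma, with 5 at an unadjusted p under 0.05 by feeders, beside 21.8% of all tested genes, and 0 between genotypes, beside 12.3%. Mdm4, the relative and partner of MDM2, read 304 and 268 without feeders, then 456.5 and 411 on feeders (adjusted p = 0.0868 by limma). The kinase genes Hipk2 and Prkdc had feeder differences of 0.76 and 0.67, and Ppp1r13l, which encodes the p53 inhibitor iASPP, of 0.51. Cdkn2a, whose ARF product binds MDM2, had the largest genotype difference at 0.90 (SE 0.44), with 9.9 and 42.9 without feeders, then 17.9 and 19.3 on feeders. Ppp1r13b had 0.47, Wrap53 -0.36 and Prkdc -0.33 in the same comparison. The Ppp1r13b value is a mean of 1.20 without and -0.27 on feeders. Of the p53 relatives Trp63 and Trp73 only Trp73 passed the filter, with 16.2 and 25.5 without feeders, then 8.7 and 15 on feeders.

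Close relatives of the members were read to set the family beside the p53 target. Of 17 tested, 1 rose and 2 fell on feeders by limma, beside 4.77% of all tested genes in either direction. Between genotypes 0 passed by limma, with 4 at an unadjusted p under 0.05, beside 12.3% of all tested genes. Ccng2, the relative of Ccng1, read 56.6 and 105 without feeders, then 166 and 272.5 on feeders and rose by 1.41 (SE 0.18, adjusted p = 0.0147 by limma). Phlda2, the imprinted relative of Phlda3, fell by 1.48 (SE 0.19, adjusted p = 0.0145 by limma), and Bcl2l11, which also fell, is given above. Cdkn1b and Cdkn1c, the relatives of Cdkn1a, read 81.6, 95.5, 106.7 and 179.8, and 37.1, 78.9, 38.5 and 58, and neither passed. Trp53inp2 had a feeder difference of 0.79 and Bok of -0.90. Between genotypes Ccng2 and Cdkn1c had 0.77 each, Sesn2 -0.63 and Cdkn1b 0.47.

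p21 acts in part by lowering cell cycle genes through the DREAM repressor complex. Of 15 tested genes of that kind, 0 passed in either comparison by limma, with 1 between genotypes and 5 by feeders at an unadjusted p under 0.05, beside 12.3% and 21.8% of all tested genes. The median difference was 0.01 between genotypes and -0.13 by feeders, beside 0.01 and 0.03 over all tested genes. By feeders 9 of the 15 were lower and 6 higher. The kinase gene Cdk1 read 1631 and 1791 without feeders, then 1331 and 1383 on feeders, and Ccna2, which encodes cyclin A2, 1063 and 1015 and then 739.5 and 841. The largest feeder differences were -0.67 for Foxm1, -0.40 for Ccna2, -0.34 for Birc5 and -0.33 for Cdk1. The part of fibroblast RNA in them was not tested. Mybl2, a subunit of the activating form of the complex, had the largest genotype difference at -0.67 (SE 0.15, adjusted p = 0.208 by limma), followed by Plk1 (0.20), Mki67 (0.12) and Birc5 (0.10).

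**Figure D5:**
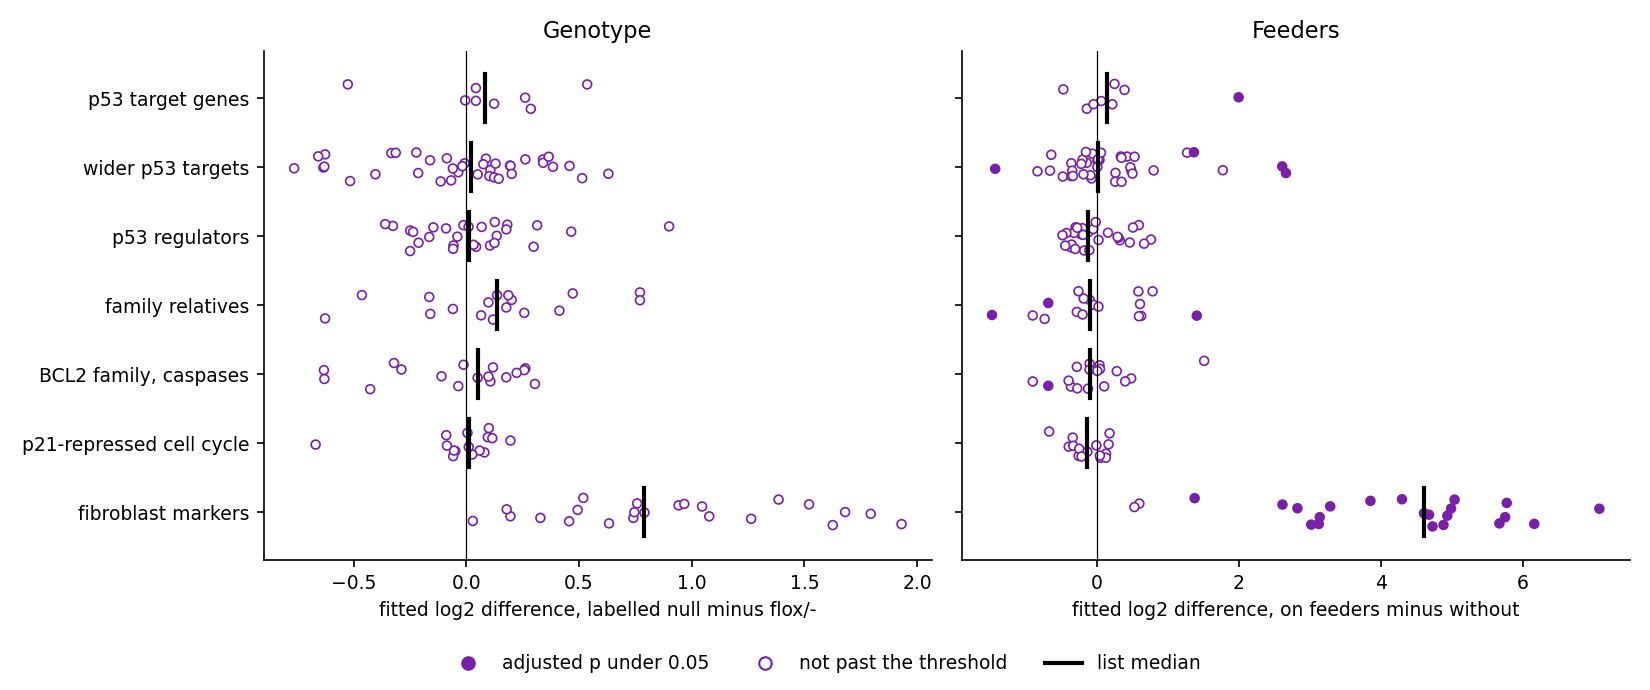
Each circle is the fitted log2 difference of 1 tested gene, between genotypes on the left and by feeders on the right, by list, with filled circles at an adjusted p under 0.05 and a bar at the list median; scatter within a row has no meaning and the x axes differ. The median of fibroblast markers was 4.61 by feeders and 0.79 between genotypes, while the other gene lists shown had medians between -0.13 and 0.14 in both comparisons.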

How the data were processed

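Per the labels, total RNA of 4 cultures was labelled with biotin and hybridised to 1 Affymetrix array each. The authors deposited linear array intensity values (MAS5 signals, per the submitters' processing notes, version not given in the sources used here) for 45101 probe sets, without detection calls. With a 2% trimmed mean of 100 on every array no scaling was added; median signals ran from 16.1 to 18. Control probe sets (64) were dropped. The annotation gave 1 symbol for 34945 probe sets, several for 932 and none for 9160, and only the first were used.

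Genes under the 40th percentile of mean log2 signal (signal 9.46) were left out. The fit used limma 3.58.1 in R 4.3.3 (lmFit, eBayes with a variance trend, 4.75 prior degrees of freedom), two-sided, at an adjusted p of 0.05. It was also run on simulated data with equal noise for all genes and the same genotype difference in both feeder conditions. Those settings differ from the real data, so that run does not tell the error rate here. Nothing tells whether MAS5 scaling hid a shift common to all genes. The members and lists were chosen with earlier results of these data known, so counts over them are descriptions. All member genes were named, and from each list the 4 largest differences for each factor and those that passed, up to 8. The alternatives changed the offset, normalization, filter, probe set rule or model. Promoter windows were read from RefSeq.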

Additional observations from a re-analysis of the deposited data

Results flagged for a closer look

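For 5 of the 8 members the genotype difference had opposite signs in the 2 feeder conditions, beside 39.9% of all tested genes. The difference on feeders minus that without feeders was -1.81 for Btg2, -1.25 for Cdkn1a, -1.19 for Mdm2, -0.55 for Phlda3 and 0.20 for Sesn1 on the log2 scale. Each rests on 1 array against 1 in each condition, and the difference was not tested. For Btg2, Cdkn1a, Mdm2 and Sesn1 every probe set of the gene had the same sign of this value, and Phlda3 had a single probe set. The other Sesn1 probe sets gave 0.92, 0.97 and 0.82, the last from the one under the filter. By size the gap ranked 164 for Btg2, 572 for Cdkn1a and 676 for Mdm2 among 12485 genes. By the same contrast, 138 genes (1.11%) were at least 1.5-fold higher in one condition and at least 1.5-fold lower in the other, and 0 members were.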

How the results depend on the processing

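The 10 alternatives left the count of members called between genotypes at 0, and those run for the 2-fold rule, the 1.5-fold one included, left its counts at 0 between genotypes and 1 by feeders. Over all tested genes 4 were called between genotypes in the main setting. In the alternatives this ran from 0 to 7 genes, or 14 probe sets with every probe set tested by itself. With so few calls over all genes, a count of 0 among 8 members says little about the members. The count called by feeders, 1 (Cdkn1a), was 0 with no filter (adjusted p = 0.0613 by limma), a filter at the 60th percentile (0.0619), the mean of probe sets (0.0651), no variance trend (0.123) and a model with 1 factor (0.075); its difference stayed between 1.86 and 2.02. Over all tested genes the count called by feeders was 595 in the main setting. In the settings just listed it was 269, 268, 384, 183 and 231, in that order. The filters and the mean of probe sets also changed the number of genes tested. The cause of the lost call was not tested. The count of genes called by feeders over all wider p53 pathway lists together was 7 (4 higher, 3 lower). It was 2 with no variance trend, 4 with no filter, 4 with a 60th percentile filter, 5 with the mean of probe sets, 8 with quantile normalization and 9 with median centring (4 higher, 5 lower). Signs reversed only for differences that did not pass. With the mean of probe sets these were Mdm2 by feeders (0.18) and Sesn1 by feeders (-0.065) and between genotypes (-0.12). With quantile normalization they were Phlda3 between genotypes (0.0041), Sesn1 by feeders (-0.055) and between genotypes (-0.0061) and Trp53inp1 by feeders (0.026). With median centring they were Sesn1 by feeders (-0.0038) and between genotypes (-0.0177) and Trp53inp1 between genotypes (-0.0177). No paired analysis was possible beyond the model's genotype and feeder terms, because each group had 1 array and no replicate number to block on. With 1 array a group, no array could be left out with both terms kept. Without detection calls, dim probe sets such as the dimmest of Mdm2 have no measured background.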
